A study of Mus musculus with 6 samples.

Results

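Small nucleolar RNAs (snoRNAs) were followed in mouse embryonic fibroblasts (MEFs) treated with erastin. The members were chosen by annotation and by summed counts: they are the genes that GENCODE M21 annotates as snoRNA and that had at least 60 counts over the 6 libraries, 118 of the 43346 genes in the count table. They hold 42 box C/D snoRNAs (symbols starting with Snord), 18 box H/ACA snoRNAs (symbols starting with Snora) and 58 with other symbols, among them the U3 genes Rnu3a and Rnu3b3 and many unnamed gene models. Of the 1484 snoRNA genes in the table, 1205 had no count and 161 had 1 to 59 counts. The summed count decided membership, so abundance is described here and not tested.

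The cells were primary MEFs of the C57BL/6 strain at passage 9, and the labels give no other treatment or genetic change in either group. Of the 6 libraries, 3 came from cells given DMSO, the solvent control, and 3 from cells given 3 µM erastin for 24 h. Erastin is a small molecule that blocks cystine uptake through system xc- and causes ferroptosis, an iron-dependent form of cell death. Total RNA was depleted of ribosomal RNA, heated to fragment it, and sequenced on an Ion Proton instrument from library fragments of 100 to 200 bp. Library totals were 13333911 to 18505571 counts in DMSO and 16800789 to 20509970 in Erastin. No label ties a replicate number to a separate culture or embryo, so the p-values measure the spread between these libraries, which may be technical. All 10 fibroblast markers were detected, with a summed level of 36808 to 40023 CPM (counts scaled to the size of the library) in DMSO and 26624 to 28181 in Erastin, and 9 of the 10 were lower in Erastin. The summed level of 6 epithelial markers was 2.14 to 3.25 CPM over all libraries, that of 4 endothelial markers was 4.66 to 7.1 in DMSO and 13.2 to 16.4 in Erastin, and that of 5 blood cell markers was 22.0 to 41.4 and 26.9 to 55.7. Summed neural markers (5 genes) were at 72.4 to 101 CPM in DMSO and 54.8 to 61.5 in Erastin, and skeletal muscle markers (5 genes) at 35.5 to 45.6 and 65.2 to 69.1. Most of the muscle sum came from Des alone, at 35.3 to 45.1 CPM in DMSO and 64.5 to 68.2 in Erastin. Myod1, Myog, Myf5 and Pax7 were each at 0.659 CPM or less in every library. Most of the neural sum came from Tubb3 and Map2, and most of the endothelial sum from Kdr and Tek. No gene of these lists was at 0 in all libraries, and the part of other cells in the snoRNA differences was not tested. In bulk RNA, fewer cells of a type and less RNA per cell cannot be told apart.

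DMSO replicate 3 stood apart from the other 5 libraries for snoRNAs, and class and member results below are therefore set beside their values without it. It held the highest level of the 6 libraries in 103 of the 115 snoRNAs that entered the test, or 89.6%, against 20.2% of all 14000 genes tested. The choice of members has a part in this count, because 17 of the 118 reach 60 counts through DMSO replicate 3: among the 101 that reach 60 in the other 5 libraries it was highest in 91 (90.1%). The median ratio of DMSO replicate 3 to the mean of DMSO replicates 1 and 2 was 2.87 over the C/D snoRNAs, 2.06 over the H/ACA snoRNAs and 0.993 over protein-coding genes. The spliceosomal and other snRNAs, a biotype of similar size that is not among the members, had a median ratio of 4.12 in the same library. The small Cajal body RNAs had a ratio of 1.19. Both biotypes were held to the same minimum of 60 summed counts, so DMSO replicate 3 can have a part in their choice as well. In 52 genes of 200 nt or less outside these 3 biotypes, the median log2 ratio was 0.045, and in 270 genes of over 200 to 500 nt it was -0.21. These log2 ratios had 0.5 CPM added to both levels, which draws low genes towards 0. The ratios given before them are plain, so the sizes cannot be compared directly.

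As background, snoRNAs are short RNAs of the nucleolus that mostly lie in introns of other genes and are released when those introns are spliced out and trimmed. C/D snoRNAs carry a C box and a D box, bind fibrillarin, and guide methylation of the ribose in ribosomal RNA. H/ACA snoRNAs fold into hairpins, end close to an ACA triplet, bind dyskerin, and guide the conversion of uridine to pseudouridine. A few members of both classes do not guide a modification but take part in cutting the ribosomal RNA precursor.

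The sequences below are shown because the 2 classes, and within C/D the long and the short members, were called lower at different rates once DMSO replicate 3 was left out. All are annotated transcripts of GENCODE M21 (build GRCm38, named mm10 in the submitters' processing notes), printed 5′ to 3′ in DNA letters. Among the H/ACA snoRNAs, Snora73b and Snora73a are the 2 copies of U17, which is needed for cutting the precursor of 18S ribosomal RNA, and Snora16a was the next most abundant of the class. The capitals mark the ACA triplet that precedes the last 3 bases. Snora73b lies at chr4:132352322-132352526 (minus strand), Snora73a at chr4:132352775-132352979 (minus strand) and Snora16a at chr4:132309465-132309600 (plus strand). Both Snora73 copies lie within Rcc1 in the annotation, Snora73a also touches an exon of the noncoding Snhg3, and Snora16a touches an exon of Snhg12.
Snora73b: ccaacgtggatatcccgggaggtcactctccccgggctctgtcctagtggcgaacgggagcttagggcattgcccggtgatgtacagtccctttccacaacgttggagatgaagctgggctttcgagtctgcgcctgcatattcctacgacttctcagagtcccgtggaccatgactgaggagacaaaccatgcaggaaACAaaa
Snora73a: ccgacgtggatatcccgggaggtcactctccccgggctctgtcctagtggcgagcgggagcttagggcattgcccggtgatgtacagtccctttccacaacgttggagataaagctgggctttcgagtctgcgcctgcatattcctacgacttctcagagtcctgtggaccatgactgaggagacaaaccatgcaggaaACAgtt
Snora16a: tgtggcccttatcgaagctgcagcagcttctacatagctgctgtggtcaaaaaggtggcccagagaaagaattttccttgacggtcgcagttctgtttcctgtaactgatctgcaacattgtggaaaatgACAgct

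The 2 Snora73 copies matched at 198 of 205 positions, 96.6%. How the authors' counting split reads between near-identical copies is not given in the sources used here, so the levels of the single copies are uncertain. Both copies also overlap exons of the gene model Gm17300.

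The next sequences are from the 7 tested C/D snoRNAs of 100 nt or more and were picked because they fell with and without DMSO replicate 3. Without that library, 4 of the 7 were not called. The capitals mark the C box (TGATGA) and the D box (CTGA). Snord17 is 238 nt long and lies within Snx5 at chr2:144265979-144266216 (minus strand). Snord15a is 148 nt long and lies within Rps3, a gene of the small ribosomal subunit, at chr7:99482785-99482932 (minus strand).
Snord17: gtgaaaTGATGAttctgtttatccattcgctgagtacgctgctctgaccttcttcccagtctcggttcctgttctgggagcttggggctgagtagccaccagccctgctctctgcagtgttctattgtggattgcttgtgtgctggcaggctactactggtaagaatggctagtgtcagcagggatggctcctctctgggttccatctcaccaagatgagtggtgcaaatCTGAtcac
Snord15a: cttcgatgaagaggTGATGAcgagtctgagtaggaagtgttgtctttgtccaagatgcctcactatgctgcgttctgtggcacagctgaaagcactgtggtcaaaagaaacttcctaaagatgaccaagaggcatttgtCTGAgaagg

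The short C/D snoRNAs that follow are shown for contrast, because their groups were not called different without DMSO replicate 3. Snord83b (94 nt) lies within Rpl3 at chr15:80078498-80078591 (minus strand) and Snord100 (74 nt) within Rps12 at chr10:23785750-23785823 (minus strand). Snord82 (70 nt) lies within Ncl, the nucleolin gene, at chr1:86356261-86356330 (minus strand) and was chosen after its values were seen.
Snord83b: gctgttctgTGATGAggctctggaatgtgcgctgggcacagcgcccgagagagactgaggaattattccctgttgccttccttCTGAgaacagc
Snord100: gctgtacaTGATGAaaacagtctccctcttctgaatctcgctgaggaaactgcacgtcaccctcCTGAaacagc
Snord82: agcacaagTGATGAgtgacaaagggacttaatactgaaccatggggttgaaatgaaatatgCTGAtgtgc

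The class names matched these letters in most members. On the RNA strand, TGATGA within the first 25 bases together with CTGA within the last 15 occurred in 27 of 42 C/D snoRNAs and 0 of 18 H/ACA snoRNAs. A terminal ACANNN occurred in 16 of 18 H/ACA snoRNAs and 0 of 42 C/D snoRNAs. Over all 1507 snoRNA genes of the annotation, 20.3% held both boxes and 18.3% ended in ACANNN. In the 58 members with other symbols, 20 held both boxes and 31 ended in ACANNN. Annotated length was 81 nt in the median C/D snoRNA (64 to 238) and 138 nt in the median H/ACA snoRNA (127 to 205).

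With all 6 libraries, snoRNAs of both classes were lower in erastin-treated MEFs and none was called higher. Counts were tested with edgeR's quasi-likelihood method over all 14000 genes that passed a filter on low counts, and a call is a Benjamini-Hochberg adjusted p under 0.05. Of all genes tested, 21.5% were called lower in Erastin and 21.6% higher. The filter passed 115 of the 118 members (Gm24698, Gm22455 and Snord58b did not pass), and 54 of them were called lower, 47.0%. By class, 20 of 41 C/D snoRNAs (48.8%), 12 of 18 H/ACA snoRNAs (66.7%) and 22 of 56 others (39.3%) were called lower. These shares depend on counts: with at least 200 summed counts, 20 of 29 C/D (69.0%) and 12 of 15 H/ACA snoRNAs (80.0%) were called lower. In all 3 classes 0 were called higher with edgeR, 0 were higher at an unadjusted p under 0.05, and DESeq2 called 0 higher. The median log2 fold change (Erastin over DMSO) was -1.03 for C/D, -1.18 for H/ACA and -0.98 for the others, against -0.0014 over all genes tested. DESeq2 called 13 C/D, 11 H/ACA and 21 other snoRNAs lower. Over all genes it called 6102 in both directions together, against 6028 with edgeR.

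The summed count can favour members that are high in DMSO: 102 of the 118 reach 60 counts in the DMSO libraries alone and 85 in the Erastin libraries alone. In a count made after seeing the data over those 85, which favours the other direction, 20 of 31 C/D, 12 of 16 H/ACA and 18 of 38 other snoRNAs were called lower, and 5, 8 and 11 without DMSO replicate 3. Their medians were -1.0, -1.16 and -0.97 with all libraries and -0.32, -0.69 and -0.47 without it. None was called higher by edgeR.

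Without DMSO replicate 3, the H/ACA class kept a larger share of its calls than the C/D class. The share of all genes called lower was then 19.7%. Of the H/ACA snoRNAs, 8 of 18 (44.4%) were called lower, with a median log2 fold change of -0.69. Of the C/D snoRNAs, 5 of 41 (12.2%) were called lower, a share below that of all genes, with a median of -0.27. The members with other symbols gave 12 of 56 (21.4%), near the share of all genes, with a median of -0.50. With at least 200 summed counts, 8 of 15 H/ACA (53.3%) and 5 of 29 C/D snoRNAs (17.2%) were called lower in this fit. All 25 members called lower without this library were among the 54 called with it. Without Erastin replicate 1, 7 C/D and 8 H/ACA snoRNAs were called lower, while the medians stood at -1.02 and -1.13. Calls over all genes, in both directions together, also fell in that fit, from 6028 to 4802. Leaving out one of the other 4 libraries gave 16 to 24 C/D and 10 to 14 H/ACA snoRNAs called lower. Over all genes these fits called 5203 to 5686, in both directions together. The difference between the classes itself was not tested.

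**Figure D1:**
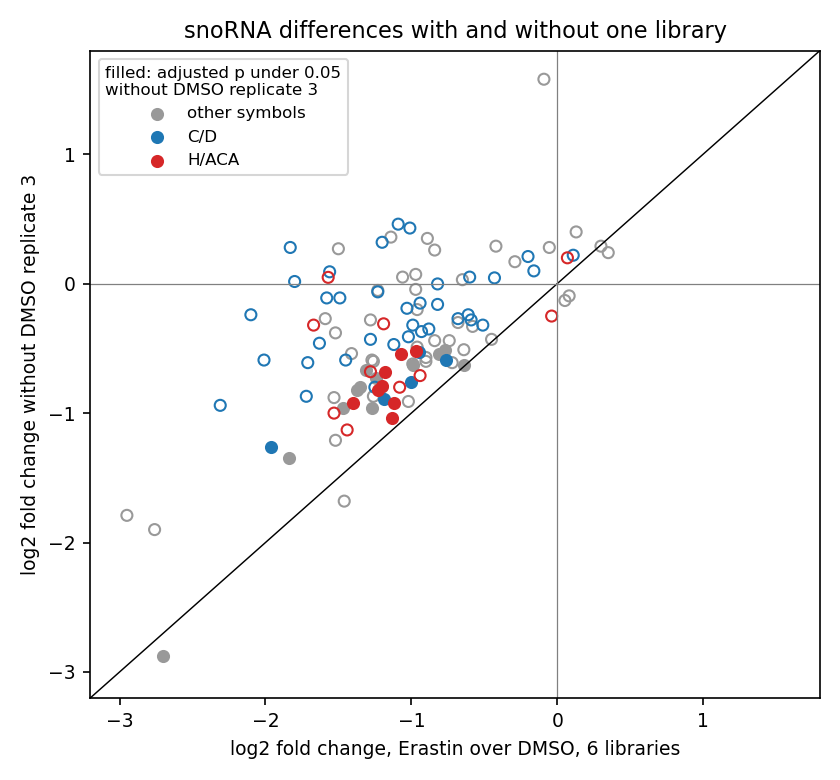
Log2 fold change (Erastin over DMSO) of the 115 tested snoRNAs with all 6 libraries (x axis) against the same without DMSO replicate 3 (y axis), coloured by class. The diagonal marks equal values and filled points have an adjusted p under 0.05 without that library. Most points lie above the diagonal, and the filled points include 8 of 18 H/ACA and 5 of 41 C/D snoRNAs.

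The share of each library taken by snoRNAs showed the same split. C/D snoRNAs made up 0.0647%, 0.0530% and 0.128% of all counts in DMSO replicates 1 to 3 and 0.0475%, 0.0462% and 0.0534% in Erastin replicates 1 to 3, with means of 0.0818% ± 0.0403 and 0.0490% ± 0.00382 (SD, n = 3). The groups overlapped, since Erastin replicate 3 lay above DMSO replicate 2, and the mean of DMSO replicates 1 and 2 was 0.0588%. Leaving out DMSO replicate 3 thus took the difference in C/D share from -0.0328 to -0.00982 percentage points. H/ACA snoRNAs made up 0.0537%, 0.0628% and 0.0997% in DMSO and 0.0307%, 0.0342% and 0.0386% in Erastin, with means of 0.0720% ± 0.0244 and 0.0345% ± 0.00393 (SD, n = 3). All 3 DMSO libraries lay above all 3 Erastin libraries, and the mean of DMSO replicates 1 and 2 was 0.0582%, so the difference went from -0.0375 to -0.0237 percentage points. Snora73b alone held 55.4% of the H/ACA counts and Snord83b 23.5% of the C/D counts.

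**Figure D2:**
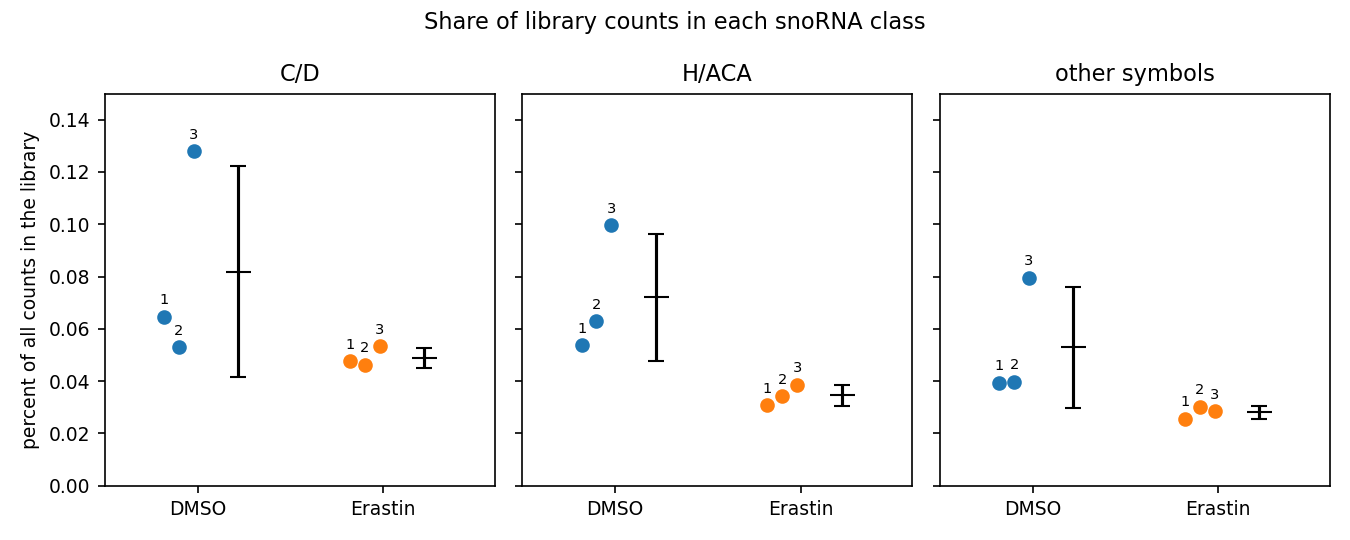
Percent of all counts in each library that fell in C/D snoRNAs, H/ACA snoRNAs and snoRNAs with other symbols. Points are libraries with their replicate number, bars are the mean ± SD of 3 libraries. DMSO replicate 3 is highest in each panel, and the H/ACA groups do not overlap whereas the C/D groups do.

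A ratio of the 2 classes within a library does not depend on library totals. The ratio of H/ACA to C/D counts was 0.829, 1.18 and 0.780 in DMSO and 0.647, 0.740 and 0.723 in Erastin. Without Snora73b and Snord83b it was 0.525, 0.549 and 0.485 in DMSO and 0.442, 0.381 and 0.450 in Erastin. Over members that overlap no exon of another gene, a set without Snora73b, it was 0.167, 0.173 and 0.174 in DMSO and 0.151, 0.127 and 0.114 in Erastin. The difference of the means was -0.0406 in this set and -0.228 over all members. The ratios themselves were also lower in this set, so the sizes of these differences cannot be compared directly. Every Erastin library lay below every DMSO library on these 3 measures, although the gap between the nearest libraries was small.

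Counted member by member, all 3 Erastin libraries lay below all 3 DMSO libraries in 11 of 18 H/ACA snoRNAs (61.1%), 11 of 41 C/D snoRNAs (26.8%) and 17 of 56 others (30.4%). Over all genes tested this held for 25.9%. The next medians are log2 levels relative to the mean of DMSO replicates 1 and 2, with 0.5 CPM added to both. For the C/D snoRNAs the median was -0.34, -0.29 and -0.29 in the Erastin libraries and 1.41 in DMSO replicate 3. For the H/ACA snoRNAs it was -0.60, -0.62 and -0.44 in Erastin and 1.03 in DMSO replicate 3, while DMSO replicates 1 and 2 stood at -0.21 and 0.18.

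Of 7 tested snoRNAs that take part in cutting or modifying the ribosomal RNA precursor in special ways, 5 were called lower with all libraries (median log2 fold change -1.13) and 3 without DMSO replicate 3 (median -0.63). Over all genes these shares were 21.5% and 19.7%. All 7 were lower at an unadjusted p under 0.05 with 6 libraries. Snora73b, one U17 copy and the most abundant snoRNA here, was at 294, 408 and 514 CPM in DMSO and 149, 203 and 206 CPM in Erastin. Its highest Erastin value lay below its lowest DMSO value. In log2 units it fell by 1.12 with an SE of 0.16 (edgeR adjusted p = 4.9e-05), and the log2 fold change was -0.92 without DMSO replicate 3. Snora73a, the other copy, was at 4.46, 4.27 and 5.29 CPM in DMSO and 1.49, 2.63 and 2.28 CPM in Erastin, and it fell by 1.13 (SE 0.36, edgeR adjusted p = 0.0192). In Snora73a, DMSO replicate 3 lay close to the other DMSO libraries, and the log2 fold change without it was -1.04 (edgeR adjusted p = 0.0484).

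U3, which base-pairs with the ribosomal RNA precursor and is required for making 18S ribosomal RNA, was also lower. Rnu3a was at 36.0, 38.0 and 68.9 CPM in DMSO and 21, 26.6 and 24.3 CPM in Erastin. The groups did not overlap, and Rnu3a fell by 0.99 (SE 0.20, edgeR adjusted p = 0.00102), with -0.63 without DMSO replicate 3 (edgeR adjusted p = 0.00145). The second U3 gene tested, Rnu3b3, was at 2.57, 2.11 and 6.46 CPM in DMSO and 1.02, 1.02 and 1.76 CPM in Erastin. It fell by 1.53 (edgeR adjusted p = 0.0252), but without DMSO replicate 3 the value of -0.88 was not called (edgeR adjusted p = 0.215). U3 genes are near-identical copies, so their split is uncertain as well.

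The 3 members of this list with Snord symbols had values near 0 without DMSO replicate 3. The U3 genes are counted here with the other symbols, so this does not cover them. Snord13 (U13), a C/D-like RNA that guides acetylation of 18S ribosomal RNA, was at 4.31, 5.10 and 35.6 CPM in DMSO and 5.07, 3.83 and 6.17 CPM in Erastin. Its log2 fold change was -1.56 (edgeR adjusted p = 0.0437) with all libraries and 0.092 (edgeR adjusted p = 0.846) without that one. Snord118 (U8), needed for processing the RNAs of the large ribosomal subunit, was at 0.453, 0.942 and 6.23 CPM in DMSO and 0.559, 1.26 and 0.363 CPM in Erastin. It was not called (edgeR adjusted p = 0.0932), and its log2 fold change went from -1.80 to 0.017 without DMSO replicate 3. Snord14a (U14), which takes part in making 18S ribosomal RNA, gave -0.82 (edgeR adjusted p = 0.0966) and -0.0018 without that library.

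The other H/ACA snoRNAs named by count or by size of change had negative log2 fold changes with and without DMSO replicate 3. These are called members with many counts, or with groups apart and a mean of at least 50 counts, so Snora33, at -1.57 with all libraries, uncalled, and 0.049 without DMSO replicate 3, is not among them. Snora16a, printed above, was at 59.2, 58.4 and 117 CPM in DMSO and 27.0, 29.0 and 46.1 CPM in Erastin, and fell by 1.20 (SE 0.24, edgeR adjusted p = 0.000972). Snora57 was at 27.9, 18.3 and 46.3 CPM in DMSO and 14.0, 11.6 and 13.5 CPM in Erastin, and fell by 1.23 (SE 0.25, edgeR adjusted p = 0.000985). Neither snoRNA had overlapping groups. Without DMSO replicate 3 their log2 fold changes were -0.79 and -0.82, and both were still called.

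Snora7a, Snora78, Snora24 and Snora68 were called in both fits as well. Snora7a was at 29.3, 41.6 and 84.2 CPM in DMSO and 26.2, 23.7 and 23.8 CPM in Erastin (log2 fold change -1.07, and -0.54 without DMSO replicate 3). Snora78 was at 35.0, 26.6 and 69.4 CPM in DMSO and 21.5, 20.5 and 15.6 CPM in Erastin (-1.18 and -0.68). The groups of both were apart. Snora24 was at 13.4, 6.87 and 22.0 CPM in DMSO and 5.40, 6.59 and 3.94 CPM in Erastin (-1.40 and -0.92), with DMSO replicate 2 just above Erastin replicate 2. Snora68 was at 51.0, 36.3 and 92.4 CPM in DMSO and 25.3, 25.4 and 40.5 CPM in Erastin (-0.97 and -0.52), and its groups overlapped. Snora62 was at 3.40, 6.21 and 11.5 CPM in DMSO and 2.00, 2.22 and 3.06 CPM in Erastin, and its call was lost without DMSO replicate 3 (-1.53 against -1.0, edgeR adjusted p = 0.0538). Snora21, Snora28 and Snora30, named after their values were seen, also lost their calls, with log2 fold changes of -0.80, -0.68 and -0.32 in place of -1.08, -1.28 and -1.67. The 6 H/ACA snoRNAs not yet counted were called in neither fit.

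The C/D snoRNAs were also counted by length. Of 7 tested C/D snoRNAs of 100 nt or more, 6 were called lower at a median of -1.19, and 3 were called without DMSO replicate 3 at a median of -0.59. The 4 not called without that library were Snord13 (104 nt, 0.092), Snord118 (135 nt, 0.017), Snord8 (110 nt, -0.41) and Snord23 (109 nt, -0.94). Of 34 shorter ones, 14 were called lower (41.2%, median -1.02), and 2 without DMSO replicate 3 (5.88%, median -0.24). Over all genes the shares called lower were 21.5% and 19.7%, so the last share lies below that of all genes. The limit of 100 nt was set with earlier results known. Across the 41 C/D snoRNAs, Spearman's rho between length and the log2 fold change was -0.18 with all libraries and -0.32 without DMSO replicate 3. With the members typed by sequence added (60 in all) it was -0.16 and -0.17. Across the 18 H/ACA snoRNAs it was 0.32 and -0.29. These are descriptions across genes that share the same libraries. In the 52 genes of 200 nt or less that are not snoRNAs, snRNAs or small Cajal body RNAs, the median log2 fold change was -0.34 with all libraries and -0.44 without DMSO replicate 3, and the part of length in the snoRNA values was not tested.

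**Figure D3:**
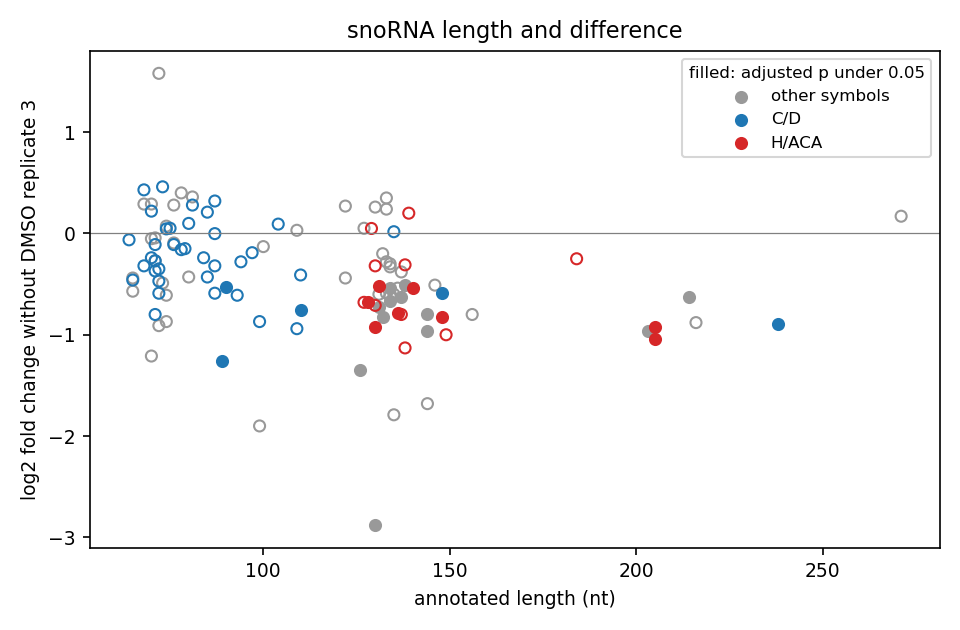
Annotated length in nt (x axis) against the log2 fold change, Erastin over DMSO, without DMSO replicate 3 (y axis) for the 115 tested snoRNAs. Filled points have an adjusted p under 0.05. The filled C/D points are 3 of the 7 C/D snoRNAs of 100 nt or more and 2 of the 34 shorter ones.

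Snord17, the longest C/D snoRNA, was at 63.9, 47.1 and 93.7 CPM in DMSO and 27.1, 28.6 and 33.8 CPM in Erastin. It fell by 1.19 (SE 0.18, edgeR adjusted p = 0.000116), and without DMSO replicate 3 its log2 fold change was -0.89 (edgeR adjusted p = 0.000112). Snord15a was at 57.9, 45.6 and 71.6 CPM in DMSO and 27.7, 38.3 and 37.5 CPM in Erastin, and fell by 0.76 (SE 0.16, edgeR adjusted p = 0.00116), with -0.59 without that library. In both, every DMSO library lay above every Erastin library. Snord111, at 89 nt, was at 4.23, 2.44 and 9.57 CPM in DMSO and 1.49, 1.02 and 1.61 CPM in Erastin, and fell by 1.96 (SE 0.48, edgeR adjusted p = 0.00436), with -1.26 without DMSO replicate 3 (edgeR adjusted p = 0.0488). The other C/D snoRNAs called in both fits, named after their values were seen, were Snord35a (-0.95 and -0.53) and Snord89 (-1.0 and -0.76).

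Among the most abundant short C/D snoRNAs, Snord100 and Snord83b were not called without DMSO replicate 3. Snord100 was at 59.6, 46.4 and 116 CPM in DMSO and 56.3, 48.1 and 59.3 CPM in Erastin, and was called in neither fit (-0.43 and 0.045). Snord83b was at 183, 114 and 255 CPM in DMSO and 128, 96.4 and 141 CPM in Erastin, so its groups overlapped. Its log2 fold change was -0.59 (SE 0.21, edgeR adjusted p = 0.0307), and -0.28 without DMSO replicate 3 (edgeR adjusted p = 0.192). Snord82 was at 16.4, 15.6 and 19.9 CPM in DMSO and 18.4, 21.4 and 16.3 CPM in Erastin, with a log2 fold change of 0.11 (edgeR adjusted p = 0.611). With all libraries this was the highest value of the 41 C/D snoRNAs. Without DMSO replicate 3 it was 0.22, below Snord85 (0.46), Snord73a (0.43), Snord70 (0.32) and Snord72 (0.28), none of which was called. These 4 are named after their values were seen. In all, 22 of the 115 tested snoRNAs went from a negative to a positive value without that library: 10 C/D, 1 H/ACA and 11 others.

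Snord91a and Snord49a had groups apart, yet much of their difference came from 1 library. Snord91a was at 3.02, 2.33 and 12.0 CPM in DMSO and 1.35, 2.10 and 1.81 CPM in Erastin, with a log2 fold change of -1.71 with all libraries and -0.61 without DMSO replicate 3 (edgeR adjusted p = 0.330). Snord49a was at 11.3, 11.1 and 30.7 CPM in DMSO and 8.75, 6.41 and 9.02 CPM in Erastin, with -1.12 and -0.47 (edgeR adjusted p = 0.105). Both were called with all 6 libraries and neither without DMSO replicate 3.

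**Figure D4:**
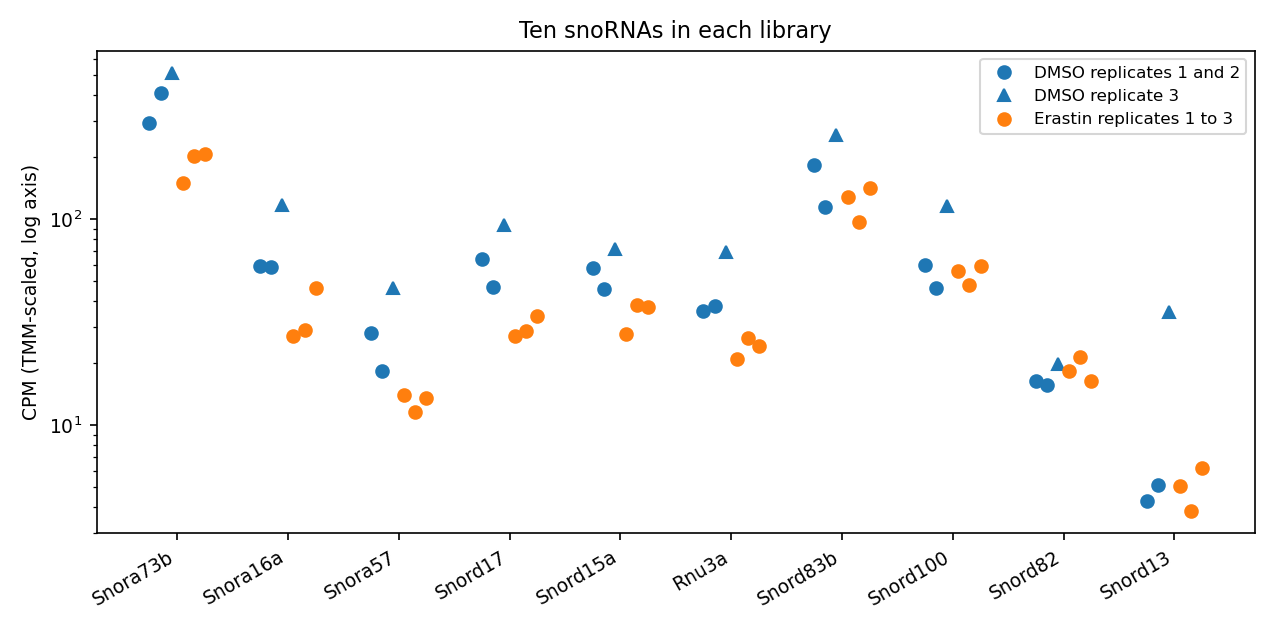
Level of 10 snoRNAs in each of the 6 libraries, in CPM on a log axis; triangles mark DMSO replicate 3 and the other points are single libraries. In Snora73b, Snora16a, Snora57, Snord17, Snord15a and Rnu3a all DMSO libraries lie above all Erastin libraries, whereas in Snord100 and Snord13 the triangle lies apart from the other 5 points.

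Members with other symbols were also split by the box they carry. Of 27 tested that end in ACANNN and lack both C/D boxes, 15 were called lower (55.6%), and 10 (37.0%) without DMSO replicate 3. Of 19 tested with both C/D boxes, 4 were called lower (21.1%), and 1 (5.26%) without that library. Adding them to the named classes gave 27 of 45 H/ACA snoRNAs lower, 18 of 45 without DMSO replicate 3, and 24 of 60 C/D snoRNAs lower, 6 of 60 without it. This grouping was chosen after seeing the data. It rests on exact letters: the U3 genes Rnu3a and Rnu3b3 matched neither pattern and are in neither extended class. Of all genes tested, 21.5% were called lower with all libraries and 19.7% without DMSO replicate 3. At the limit for membership, Gm24620 (61 counts), Gm25291 (63) and Snord69 (67) were just inside, and Gm22858 (57), Gm25107 (54) and Gm24455 (52) just outside.

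Because most snoRNAs come from introns, each was set beside the gene that contains it on the same strand (with several such genes, the one with the most counts). In 103 tested members with a tested host, 79 host genes in all, the hosts were at a median of 0.058 in log2, with 14 called lower and 24 higher, where 21.5% of all genes were called lower and 21.6% higher. The snoRNA lay below its host in 99 of 103 cases, and in 80 of 103 without DMSO replicate 3. Of the 46 members called lower, the host was called lower for 6, higher for 17 and not called for 23. The 17 include both Snora73 copies, set beside Rcc1, although Snora73a also touches an exon of Snhg3. Across the 103 pairs, which share libraries and in part hosts, Pearson's r was -0.037 and Spearman's rho -0.032 (0.033 without DMSO replicate 3).

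**Figure D5:**
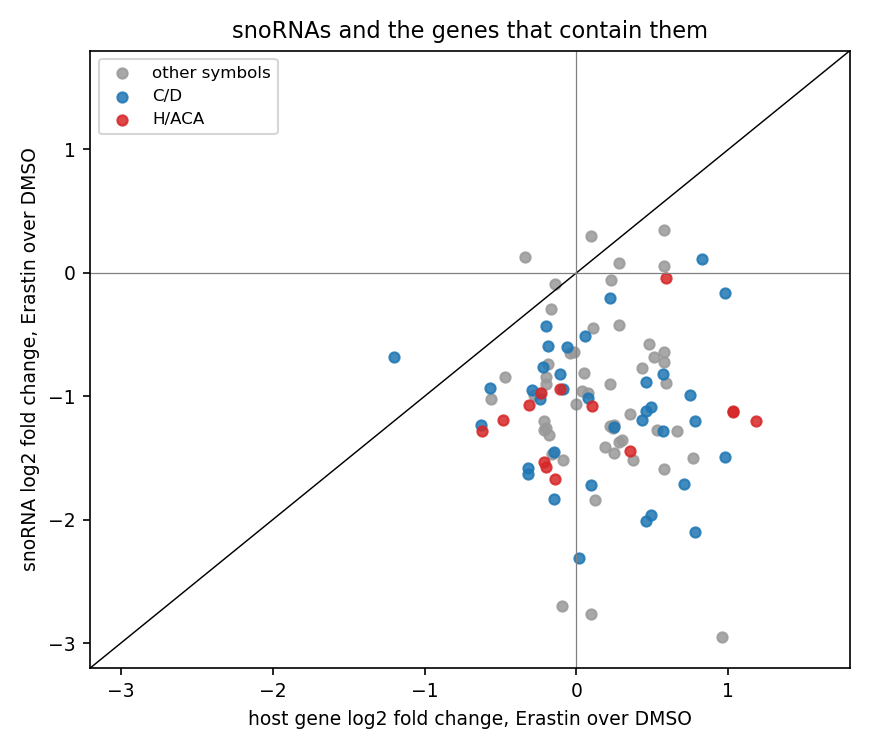
Log2 fold change (Erastin over DMSO, 6 libraries) of each host gene (x axis) against that of the snoRNA it contains (y axis) for 103 pairs, coloured by class. The diagonal marks equal values, and 99 of 103 points lie below it.

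At some single loci the host rose while the snoRNA inside it fell. Snhg12, a noncoding RNA whose introns are known to carry snoRNAs, was at 16.4, 17.3 and 20 CPM in DMSO and 39.2, 37.2 and 45.0 CPM in Erastin. It rose by 1.18 (SE 0.13, edgeR adjusted p = 3.62e-06), while Snora16a inside it fell by 1.20. Rcc1, set beside both Snora73 copies as the containing gene with the most counts, rose by 1.03 (edgeR adjusted p = 1.05e-06). Snhg3, an exon of which Snora73a touches, did not rise: its log2 fold change was 0.038 (edgeR adjusted p = 0.954). It was at 2.04 to 4.75 CPM in DMSO and 1.76 to 5.4 CPM in Erastin. From which gene the Snora73 copies are released was not tested, so no contrast of host and snoRNA can be read at this locus. Snx5, which contains Snord17, rose by 0.43 (edgeR adjusted p = 0.00144). Snhg18 went the other way: it fell by 1.20 (edgeR adjusted p = 1.94e-05), and Snord123 inside it had a log2 fold change of -0.68 (edgeR adjusted p = 0.154), and -0.27 without DMSO replicate 3. Without that library Snhg12, Rcc1, Snx5 and Snhg18 had 1.26, 0.99, 0.33 and -1.29. Hosts that encode ribosomal proteins, 20 of the 79, were at a median of -0.19.

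Hosts with 3 or more tested snoRNAs are given with the range of their members, whose differences from each other were not tested. The noncoding 2410006H16Rik rose by 0.46 (SE 0.11, edgeR adjusted p = 0.00309), and its Snord49b, Snord49a and Snord65 had log2 fold changes from -2.01 to -0.88, all called lower with 6 libraries, and from -0.59 to -0.35, none called, without DMSO replicate 3. Rpsa, a protein of the small subunit, was not called (-0.21, edgeR adjusted p = 0.0676), and its Gm26448, Snora62 and Gm24044 ranged from -1.53 to -1.20, with 2 called lower, and from -1.0 to -0.80 without DMSO replicate 3, with 1 called. Rps12 was not called (-0.20), and none of its 3 tested snoRNAs was (-1.57 to -0.43). Rpl4, a protein of the large subunit, was not called (0.095), and 2 of its 3 snoRNAs were called lower, none without DMSO replicate 3. Taf1d, a factor of RNA polymerase I, was not called (0.58, edgeR adjusted p = 0.0579), and 1 of its 5 snoRNAs was called lower in both fits, with values from -1.59 to 0.35.

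None of the 8 mRNAs of the core proteins that bind snoRNAs was called lower by edgeR or DESeq2, and 1, of the H/ACA list, was lower at an unadjusted p under 0.05. Of the 4 C/D core proteins, 2 rose: Nop58 was at 61.3, 59.3 and 54.8 CPM in DMSO and 106, 96.0 and 98.8 CPM in Erastin (0.78 in log2, SE 0.087, edgeR adjusted p = 4.7e-06), and Nop56 gave 0.75 (SE 0.11, edgeR adjusted p = 5.64e-05). Without DMSO replicate 3 they had 0.73 and 0.74, both called. Fbl, the methyltransferase fibrillarin, had 0.0027 (SE 0.20), a value whose sign changed with the scaling, and Snu13 -0.14. Of the 4 H/ACA core proteins, 1 rose. Dkc1, the pseudouridine synthase dyskerin, had 0.42 (edgeR adjusted p = 0.0400) and 0.34 without DMSO replicate 3 (edgeR adjusted p = 0.113), and Nhp2, Nop10 and Gar1 had -0.19, -0.29 and 0.38, none called.

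Factors that build snoRNPs gave 4 higher and 1 lower of 12, led by Nolc1 (0.81), a nucleolar chaperone of snoRNPs, and Ruvbl2 (0.78), an ATPase of the assembly complex. Enzymes of snoRNA end trimming and RNA turnover gave 5 higher of 12, and 0 lower with edgeR, with DESeq2 or at an unadjusted p under 0.05, led by the exosome nuclease Dis3 (0.91) and the poly(A) polymerase Tent4b (0.88). Genes of ribosomal RNA transcription and nucleolar structure gave 5 higher and 1 lower of 10, led by Ncl (0.83) and Polr1a (0.87), the largest subunit of RNA polymerase I. Spliced noncoding host transcripts gave 2 higher and 3 lower of 13 tested, led by Snhg12 and Snhg18. Without DMSO replicate 3 the counts of these 4 lists were unchanged but for 4 higher in place of 5 among the genes of ribosomal RNA transcription. These counts read beside 21.6% of all genes called higher and 21.5% called lower.

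Of 11 other small structured RNAs tested outside the snoRNA biotype, 7 were called lower by edgeR, 4 without DMSO replicate 3, and 3 by DESeq2. Rnu11 and Vaultrc5, not called, went from -0.17 and -0.20 to 0.85 and 0.23 without that library. 0 were called higher by either tool, and 0 were higher at an unadjusted p under 0.05. Rny1, a Y RNA, was at 70.3, 70.0 and 140 CPM in DMSO and 38.3, 31.8 and 32.5 CPM in Erastin, and fell by 1.45 (SE 0.21, edgeR adjusted p = 5.67e-05), with -1.04 without DMSO replicate 3. Rmrp, the RNA of the RNase MRP complex that cuts the ribosomal RNA precursor, was at 4391, 6949 and 7399 CPM in DMSO and 2081, 4069 and 2254 CPM in Erastin, and fell by 1.16 (SE 0.21, edgeR adjusted p = 0.000496), with -1.02. Both had groups apart, and in Rmrp DMSO replicate 3 was close to replicate 2. Among snRNAs, 16 of 24 tested were called lower (66.7%), 8 without DMSO replicate 3 (33.3%). Among small Cajal body RNAs, 5 of 11 were called lower (45.5%) and 1 higher, and 3 lower (27.3%) and 1 higher without it. Of all genes tested, 21.5% were called lower and 21.6% higher, and 19.7% and 20.4% without DMSO replicate 3.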

How the data were processed

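RNA-seq of 6 MEF libraries, 3 per group, was used as the deposited table of raw counts per gene. Per the submitters' processing notes the tools were HTSeq 0.9.1 and SAMtools on build mm10. The aligner, the counting mode, strand use and the annotation are not given in the sources used here. Gene identifiers were matched to GENCODE M21 with the version removed (42462 of 43346 matched, 98.0%), and 117 of 118 members had the same version. No sample column was left unused.

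Counts were fitted with edgeR 4.0.16 (R 4.3.3) by its quasi-likelihood test, with TMM scaling, the default low-count filter and Benjamini-Hochberg adjustment over all genes tested. CPM values are TMM-scaled. 3 counts correspond to 0.14 to 0.234 CPM, a limit of counting error only, since PCR reads without molecular identifiers are not independent molecules. The script was tested on simulated data.

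The members, classes and lists were chosen with earlier results of these data known. Named were the tested precursor-processing snoRNAs, the 5 members of each class with the most counts, the 4 largest called changes per direction and class with a mean of at least 50 counts and groups apart, hosts of at least 3 tested members, the members at the limit, all core proteins, and the 2 genes with the smallest p per other list. A snoRNA that this rule picks is not reported here. A host holds the whole snoRNA on its strand. 31 members overlap exons of another counted gene, and reads there may be split or dropped. Snhg1, Snhg4, Snhg7, Snhg8, Snord3a, Rnu4atac and Rnu6atac of the lists were not matched. Libraries of a group differed beyond sampling noise (chi-square per degree of freedom 11 to 19.2 within and 78 to 123 between groups), so each counted as 1 replicate. Alternatives were other scalings, filters, DESeq2 1.42.0, a replicate block, thinning, a minimum of 200 counts, a stricter threshold, members without exon overlap, and each library left out.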

Additional observations from a re-analysis of the deposited data

How the results depend on the processing

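DMSO replicate 3 and Erastin replicate 1 moved the counts most. Over all genes, calls in both directions went from 6028 to 5809 without DMSO replicate 3 and to 4802 without Erastin replicate 1. Leaving out each library in turn gave 5 to 24 C/D, 8 to 14 H/ACA and 12 to 24 other snoRNAs called lower (20, 12 and 22 with all), and 12 to 21 of the 22 chosen by the naming rule called (19 with all). Without DMSO replicate 3 these were 5, 8, 12 and 12, and without Erastin replicate 1 they were 7, 8, 14 and 12. The median log2 fold change ranged from -1.37 to -0.27 for C/D and from -1.33 to -0.69 for H/ACA, and the Erastin minus DMSO difference in the H/ACA to C/D ratio from -0.304 to -0.101 (-0.228 with all). DESeq2 called 13 C/D snoRNAs lower. At an adjusted p under 0.01, 5 C/D, 12 other and 12 named snoRNAs were called, and 4305 of all genes. Among members overlapping no exon, 6 H/ACA snoRNAs were called lower. Their ratio to C/D differed by -0.0406, on DMSO ratios of only 0.167 to 0.174. The difference in H/ACA share was -0.00664 percentage points against -0.0375, since Snora73b is not in that set. Members with 60 counts in the 5 libraries other than DMSO replicate 3 gave 20, 12 and 20 called lower, and those with 60 in the Erastin libraries 20, 12 and 18, both chosen after seeing the data. Classes extended by sequence, chosen after seeing the data, gave 27 H/ACA snoRNAs lower, and 6 C/D snoRNAs without DMSO replicate 3. Of the named snoRNAs, those reversed without DMSO replicate 3 were Snord118 (0.017, and down to -2.43 without another library), Snord13 (0.092, down to -1.99) and Snord100 (0.045, down to -0.68). Fbl, 0.24 without DMSO replicate 3, went from 0.0027 to -9.8e-06 with RLE factors, -0.05 with upper-quartile factors, -0.14 without DMSO replicate 1, -0.067 without DMSO replicate 2 and -0.18 without Erastin replicate 2. The cause of these shifts was not tested. Replicate numbers did not pair the samples (correlations of deviations 0.0401, 0.00379 and -0.0055). With the number as a replicate block, 18 C/D, 11 H/ACA and 23 other snoRNAs were called lower. Counts limit the low members: 41 of the 118 had under 200 counts.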
